A study of Mus musculus with 62 samples.

Results

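The 9 genes described here are long noncoding RNAs of the mouse that stay largely in the cell nucleus: Malat1, Neat1, Meg3, Miat, Rian, Mirg, Snhg11, Snhg14 and Kcnq1ot1. They were found by Entrez gene identifier among the 18821 genes listed in at least 1 of 3 deposited count tables. All 9 were in the prefrontal cortex and striatum tables, and 8 were in the liver table, which did not list Mirg. They were picked because nuclear RNAs were higher at 6 mg/kg than in vehicle in these data, so their values in that comparison chose them and are given as a description with no test. The counts come from whole-tissue RNA and hold no measure of where in the cell an RNA lies. The picking did not hold for every gene and tissue, since 21 of the 25 differences from vehicle at 6 mg/kg were positive and 4 were negative.

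Long noncoding RNAs are transcribed like messenger RNAs but are not translated into a known protein, and those of this group act or accumulate where they are made. Malat1 gathers in nuclear speckles, the bodies that store splicing factors, and Neat1 is the scaffold of paraspeckles, which hold back certain RNAs and RNA-binding proteins. Meg3, Rian and Mirg are made from the maternal copy of the imprinted Dlk1-Dio3 region, and the last of them is the host transcript of a large miRNA cluster. Snhg14 is the paternal transcript that hosts small nucleolar RNAs (snoRNAs) and silences Ube3a in neurons. Kcnq1ot1 is the paternal RNA that silences genes around Kcnq1. Miat and Snhg11 are abundant in neurons.

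The libraries came from liver, prefrontal cortex and striatum of female C57BL/6 mice, an inbred strain. All mice, vehicle controls included, differed by label only in the dose taken by mouth of the MARBLES mixture of polychlorinated biphenyls (PCBs, persistent chlorinated industrial chemicals). The doses were 0 (vehicle), 0.1, 1 and 6 mg/kg. Each brain region had 4, 5, 6 and 6 libraries in that order, and the liver had 4, 4, 6 and 6. Age, the length of exposure, the hour of collection and the carrier are not given in the sources used here, and no transgene or altered allele is named. Libraries are called by the number in their titles, and nothing states which of them came from separate mice, so p-values measure the spread between these libraries. Total counts, in units of 1e6, ranged from 7.38 to 10.2 in liver, 8.72 to 12.1 in prefrontal cortex and 8.28 to 12.02 in striatum, which puts 3 counts at 0.243 to 0.415 CPM (counts per 1e6 counts of the library, scaled by edgeR's TMM factors).

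The tissues matched their defining markers: all 7 hepatocyte markers passed the filter on low counts in liver and 1 of 7 (Ttr) in brain, all 10 neuron markers passed in both brain regions, and 8 of 8 striatal neuron markers were higher in striatum. At 6 mg/kg no marker of neurons, glia, endothelium, hepatocytes, choroid plexus or blood passed the test in any tissue. Of all genes 2.8% passed in liver and 0% in either brain region, so that result says nothing about the brain markers. The differences of all 3 blood markers tested were below 0 in each tissue. Their medians were -2.77 in liver, -2.13 in prefrontal cortex and -1.36 in striatum. At an unadjusted p under 0.05 in edgeR there were 2 of them in liver and 3 in each brain region. Several libraries stood apart. In the liver, the summed level of 10 neuron markers was 36.1 to 68.0 CPM in libraries 7 (vehicle), 25 (0.1 mg/kg), 45 and 50 (1 mg/kg) and 52 and 54 (6 mg/kg), and at most 18.8 CPM in the other 14. In the brain regions the same sum was 4697 to 9738 CPM. Liver results that rest on those libraries are given with and without them, an alternative chosen after the data were seen. Striatum library 54, at 6 mg/kg, had the highest summed ribosomal protein mRNA of its region (8064 CPM against at most 6073) and the lowest Xist, the RNA of the silent X chromosome (146.9 CPM). The liver clock index, log2(CPM + 1) of Dbp minus that of Arntl (clock genes that peak at opposite hours), was 1.96 to 5.20 in vehicle and 5.52 to 7.64 in the treated libraries, with no overlap.

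All 9 genes lie on GRCm38 chromosomes in places that bear on how their reads can be read. Malat1 (Entrez 72289, chromosome 19, 5795690 to 5802672) and Neat1 (Entrez 66961, chromosome 19, 5824708 to 5845480) are neighbours, and their RefSeq spans overlap no protein-coding gene. Meg3 (Entrez 17263, 109540996 to 109571729), Rian (Entrez 75745, 109603945 to 109661716) and Mirg (Entrez 100040724, 109734981 to 109749458) follow each other on chromosome 12. Rian overlaps 11 snoRNA and 3 miRNA genes, Mirg overlaps 10 miRNA genes, and Meg3 and Rian both overlap Rtl1, an imprinted protein-coding gene. Snhg14 (Entrez 52480, chromosome 7, 59272737 to 60450177) spans 1177441 bases and overlaps 206 snoRNA and 3 protein-coding genes, among them Ube3a. Kcnq1ot1 (Entrez 63830, chromosome 7, 143213111 to 143296547) lies inside Kcnq1. Miat (Entrez 330166, chromosome 5, 112213228 to 112228948) overlaps no other gene, and Snhg11 (Entrez 319317, chromosome 2, 158375713 to 158386474) overlaps 2 snoRNA genes. The use of strand in counting is not given in the sources used here, so reads of Snhg14 and Ube3a, of Kcnq1ot1 and Kcnq1, or of Meg3, Rian and Rtl1 cannot be told apart where they overlap. The short and long forms of Neat1 are not separated in the counts.

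Promoters are shown for 4 genes, 250 bases before to 50 after the start site (RefSeq, GRCm38.p6, 5′ to 3′ on the gene's strand). Meg3 and Snhg11 are shown because their levels moved most closely together in both brain regions, and Snhg14 and Malat1 because theirs followed other measures. Capitals mark matches, on either strand, to the TATA box TATAAA, the cAMP response element TGACGTCA, the E-box CACGTG or GCGTG, the core of the element bound by the aryl hydrocarbon receptor, which dioxin-like PCBs activate.
Meg3, chr12:109540746-109541045, plus strand: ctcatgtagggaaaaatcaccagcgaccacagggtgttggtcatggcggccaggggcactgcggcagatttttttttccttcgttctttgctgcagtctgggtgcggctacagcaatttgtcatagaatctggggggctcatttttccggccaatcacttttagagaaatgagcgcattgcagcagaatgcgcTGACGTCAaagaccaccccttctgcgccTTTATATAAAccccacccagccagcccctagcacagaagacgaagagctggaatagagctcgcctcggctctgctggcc
Snhg11, chr2:158375463-158375762, plus strand: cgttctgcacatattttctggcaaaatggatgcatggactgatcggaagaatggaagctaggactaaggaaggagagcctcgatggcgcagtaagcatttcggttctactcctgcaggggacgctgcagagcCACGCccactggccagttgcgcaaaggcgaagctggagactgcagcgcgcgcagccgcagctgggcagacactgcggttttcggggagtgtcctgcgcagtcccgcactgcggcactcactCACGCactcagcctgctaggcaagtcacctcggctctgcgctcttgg
Snhg14, chr7:60450128-60450427, minus strand: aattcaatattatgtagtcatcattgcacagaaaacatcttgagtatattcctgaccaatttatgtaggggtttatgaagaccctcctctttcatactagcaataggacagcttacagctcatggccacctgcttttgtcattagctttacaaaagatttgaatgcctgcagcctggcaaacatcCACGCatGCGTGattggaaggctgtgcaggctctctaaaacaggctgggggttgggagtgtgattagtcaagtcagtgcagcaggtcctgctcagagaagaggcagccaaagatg
Malat1, chr19:5802623-5802922, minus strand: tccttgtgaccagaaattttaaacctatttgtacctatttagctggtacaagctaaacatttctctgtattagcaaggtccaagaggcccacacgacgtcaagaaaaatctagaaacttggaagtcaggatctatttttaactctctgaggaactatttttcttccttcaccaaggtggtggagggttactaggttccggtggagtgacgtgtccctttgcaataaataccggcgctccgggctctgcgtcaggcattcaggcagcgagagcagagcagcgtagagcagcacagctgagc
RefSeq lists a second Meg3 start, whose window (chr12:109545148-109545447) held none of the 4 motifs and 1 CpG. The Meg3 window shown held a cAMP response element at base -57, counted from 0 at the start site to the left end of the match, and a pair of overlapping TATA boxes, one on each strand, at -29 and -25. Of 32851 mouse promoters of that length, 1.79% held the cAMP response element and 13.6% the TATA box. The receptor core stood at -118 and 3 in Snhg11 and at -65 and -58 in Snhg14, against 32.4% of all promoters with at least 1 match. Of the members' promoters not shown, that of Miat held 1 match to the core, and those of Kcnq1ot1, Mirg and Rian held none. None of the 4 motifs was found in the window of Malat1, nor was the E-box, present in 7.15% of promoters, found in any of the 4 sequences. The Meg3 and Snhg11 windows shown held 13 and 21 CpG dinucleotides, that of Malat1 10 and that of Snhg14 2, against a median of 7. These are letter matches only.

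Per kilobase of each gene's longest transcript in the GENCODE annotation, the order of vehicle levels differed between brain and liver. In prefrontal cortex, Snhg11 was highest at 82.3 ± 10.4 CPM per kb (SD, n = 4), followed by Meg3 at 55.02 ± 2.93, Malat1 at 34.6 ± 4.86 and Rian at 32.3 ± 2.33. The values of Malat1 and Rian lay within their spread of each other. Miat stood at 13.5 ± 1.52, Neat1 at 2.35 ± 0.540, Mirg at 0.716 ± 0.151 and Kcnq1ot1 at 0.0470 ± 0.00888. In striatum the order was Snhg11 (66.2 ± 4.47), Meg3 (58.7 ± 6.44), Rian (36.0 ± 1.94), Malat1 (27.3 ± 10.5), Miat (6.99 ± 2.32), Neat1 (3.08 ± 0.582), Mirg (0.838 ± 0.340) and Kcnq1ot1 (0.0506 ± 0.0197). Snhg11 and Meg3, and Rian and Malat1, were not separated beyond their spread there. In liver, Malat1 led with 19.3 ± 6.25 CPM per kb, then Neat1 with 4.99 ± 3.51, and the brain-rich Snhg11, Meg3 and Rian stood at 0.435 ± 0.425, 0.119 ± 0.123 and 0.0936 ± 0.138, with Kcnq1ot1 at 0.0108 ± 0.00356. The GENCODE transcript of Kcnq1ot1 (93.1 kb) is longer than its RefSeq span (83437 bases), so the annotations differ, and the longer length lowers its value per kb. Neat1 was divided by the length of its long form (20.8 kb), although the counts do not separate its forms, which can lower its value too. Snhg14 has no transcript in the table used and is left out of this order, and the liver values come from a separate table, scaled on its own.

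In the liver, Malat1 and Neat1 were the most abundant members, and both were higher at 6 mg/kg than in every vehicle library. Malat1 was at 125, 80.9, 146 and 186 CPM in the vehicle libraries and at 194, 238, 350.5, 223, 308 and 266 CPM at 6 mg/kg. The log2 difference was 0.97 (SE 0.30), a 1.96-fold higher level. Between these doses Malat1 averaged 195 ± 47.8 CPM (SD, n = 4) in the 0.1 mg/kg group and 155 ± 67.1 CPM (SD, n = 6) in the 1 mg/kg group, both overlapping vehicle. Neat1 was at 40.9, 40.2, 162 and 171 CPM in vehicle and at 694, 369, 635, 236, 227 and 569.6 CPM at 6 mg/kg, a log2 difference of 2.14 (SE 0.81). Vehicle libraries 3 and 4 were low, and both middle doses overlapped vehicle: Neat1 ranged from 52.1 to 440.0 CPM at 0.1 mg/kg and from 57.5 to 1079.7 CPM at 1 mg/kg. Library 48 at 1 mg/kg, not one of the 6 mg/kg libraries, held the highest Neat1 level. Without the 6 libraries high in neuron markers, the differences at 6 mg/kg were 0.99 (SE 0.40) for Malat1 and 2.07 (SE 0.98) for Neat1.

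Kcnq1ot1, at 5 to 43 counts per liver library in these groups, was higher at 6 mg/kg as well. It stood at 1.26, 1.05, 0.528 and 1.19 CPM in vehicle and at 4.28, 2.28, 5.83, 1.19, 2.04 and 3.16 CPM at 6 mg/kg. The groups met at library 55, and all 6 libraries lay above the vehicle mean. The log2 difference was 1.62 (SE 0.48), and 0.89 (SE 0.49) without the libraries high in neuron markers, of which 52 and 54 held the highest Kcnq1ot1. At 0.1 mg/kg Kcnq1ot1 ranged from 1.26 to 3.12 CPM, its lowest library level with the highest of vehicle.

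Meg3, Rian, Snhg11 and Miat were scarce in the liver, and their highest libraries were mostly those high in neuron markers. Meg3 had 4, 1, 36 and 22 counts in the vehicle libraries, 12, 61, 5 and 7 in the 0.1 mg/kg group, 1, 2, 103, 5, 13 and 74 in the 1 mg/kg group and 129, 2, 64, 8, 17 and 25 in the 6 mg/kg group. In every dose group its highest library was one of the 6, as it was for Snhg11, while Rian was highest in library 29 at 0.1 mg/kg (12 counts). In vehicle Rian had 23 counts in library 7 and at most 3 in the others, and it had 37 and 16 counts in libraries 52 and 54 against at most 6 in the rest of the 6 mg/kg group. Snhg11 reached 109 and 116 counts in libraries 52 and 54, and 59 counts in library 7 against 7 to 17 in the other vehicle libraries. The log2 differences at 6 mg/kg were 1.44 (SE 1.22) for Meg3, 0.74 (SE 0.98) for Rian and 1.42 (SE 0.83) for Snhg11. Without the 6 libraries that of Meg3 was 0.51 (SE 0.92) and that of Snhg11 was 1.42 (SE 0.83), while Rian no longer passed the filter on low counts. Without vehicle library 7 alone, Rian had a difference of 2.57. Miat did not pass the filter in the liver. It was at 0 in all 4 vehicle libraries, where 3 counts would be 0.287 to 0.357 CPM, and at 17 and 13 counts in libraries 52 and 54, with 1 count in library 55 and 0 in the other libraries at 6 mg/kg. In bulk tissue, fewer cells of a type and less RNA per cell cannot be told apart, and the part of neuron RNA in these liver levels was not tested.

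Snhg14 went the other way in the liver. It had 94, 69, 61 and 50 counts in vehicle and 32, 52, 19, 73, 76 and 42 counts at 6 mg/kg, with overlapping groups and a log2 difference of -0.38 (SE 0.46). Without the 6 libraries high in neuron markers it was -0.12 (SE 0.43). Its lowest library was 45 at 1 mg/kg, with 7 counts.

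**Figure D1:**
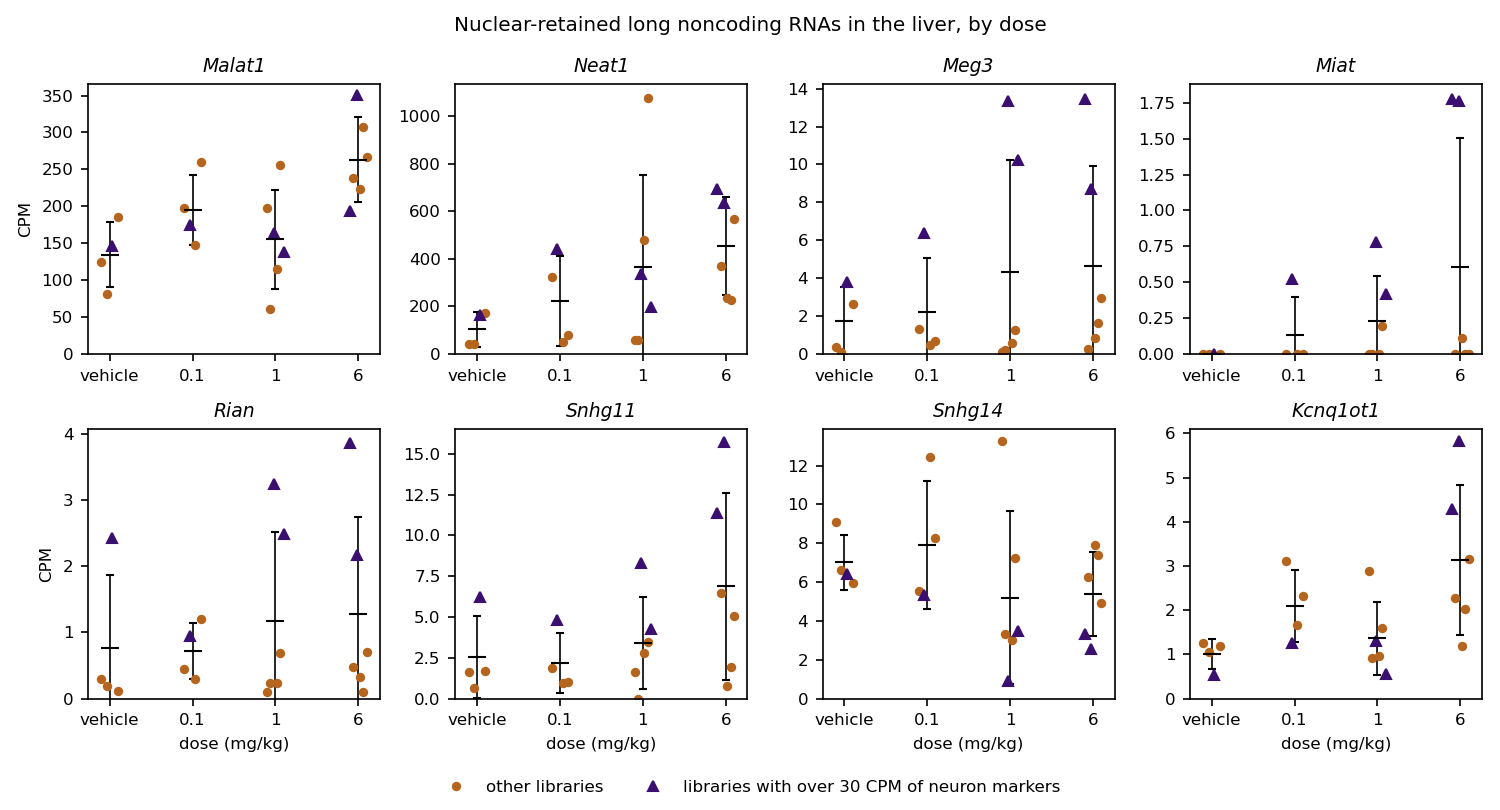
Level in CPM (y axis, linear, separate scale per gene) of 8 long noncoding RNAs in each liver library by dose in mg/kg (x axis), with the mean and SD of each group in black. Triangles are the 6 libraries with over 30 CPM of neuron markers and circles the other 14. Malat1 and Neat1 lie above all vehicle libraries at 6 mg/kg, and the highest Meg3 value of each dose is a triangle.

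Over the 7 liver members that passed the filter, 6 differences at 6 mg/kg were positive and 1 negative, with a median of 1.42 on the log2 scale against 0.02 over all 12968 genes tested. That median was 0.94 over the 6 members still tested without the 6 libraries high in neuron markers, 0.27 with 1 surrogate variable, and 1.00 (without library 54) to 2.22 (without vehicle library 7) with 1 library left out. At 0.1 and 1 mg/kg, which share the vehicle libraries with that comparison, the medians were 0.39 and 0.45. Of all liver genes, 2.8% passed an adjusted p of 0.05 at 6 mg/kg in edgeR's quasi-likelihood test, and 3.26% had every 6 mg/kg library above every vehicle library, as Malat1 and Neat1 did. The 2.8% were 363 genes, against 1138 with DESeq2, 13 with only the groups compared, 0 without the libraries high in neuron markers, and 3 (without vehicle library 4) to 1302 (without 6 mg/kg library 56) with 1 library left out. Since the members were chosen on this comparison, nothing is read from these counts. The GC slope, which is Spearman's rho over genes of transcript GC content with how far a library's log2 CPM lies from the tissue mean, was -0.271 to -0.154 in the vehicle and -0.0161 to 0.232 in the 6 mg/kg liver libraries, without overlap, as was the clock index. The summed level of 7 microglia and macrophage markers was 96.5 to 128 CPM in vehicle and 127 to 223 CPM at 6 mg/kg. Of these markers 6 of 7 had a positive difference, and C1qa (0.89, SE 0.24, edgeR adjusted p 0.0505) and Aif1 (1.06, SE 0.30, edgeR adjusted p 0.0553) came closest to the threshold. The part of these measures in the levels of Malat1 and Neat1 was not tested.

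In the prefrontal cortex the differences were small, and no member's 6 mg/kg libraries lay apart from vehicle. Snhg11 showed the largest, with 557, 506, 443 and 424 CPM in vehicle and 619, 638, 550.4, 548, 617 and 592 CPM at 6 mg/kg. All 6 libraries were above the vehicle mean, and vehicle library 3 exceeded libraries 54 and 55. The log2 difference was 0.30 (SE 0.16). Rian followed with 274, 281, 242 and 248 CPM in vehicle and 292, 276, 298, 289.8, 332 and 306 CPM at 6 mg/kg, a difference of 0.19 (SE 0.079). Only library 53, which lay below vehicle library 4 and above the other vehicle libraries, kept the groups from standing apart.

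Meg3 in prefrontal cortex ranged from 755 to 848 CPM in vehicle and from 731 to 1090.4 CPM at 6 mg/kg, with a difference of 0.17 (SE 0.18). Malat1 ranged from 196 to 274 CPM in vehicle and from 160 to 323 CPM at 6 mg/kg, a difference of 0.07 (SE 0.22). The remaining members differed by -0.04 (Miat) to 0.12 (Kcnq1ot1), each with a standard error of at least 0.18. The median over the 9 members was 0.07 against 0.004 over all 14838 genes, of which 0% passed the adjusted threshold (1376 at an unadjusted p under 0.05, and 25 adjusted with DESeq2) and 1.19% had the higher group wholly above vehicle. At 0.1 and 1 mg/kg the medians were -0.05 and 0.07. Other genes were on the higher side at 6 mg/kg too. All 7 oligodendrocyte markers (median 0.17), all 8 striatal neuron markers (0.24) and 21 of 24 ribosomal protein mRNAs (0.10) had a positive difference. So had 5 of 10 general neuron markers and 3 of 7 microglia markers. The part of these measures in the members' levels was not tested.

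In the striatum, 7 of 9 members had a positive difference at 6 mg/kg. Neat1 was at 58.4, 66.3, 79.5 and 51.3 CPM in vehicle and at 137, 110.6, 114, 90.5, 68.1 and 69.3 CPM at 6 mg/kg. All 6 libraries exceeded the vehicle mean, and libraries 56 and 58 overlapped the vehicle range. The log2 difference was 0.62 (SE 0.20). Snhg11 was at 409, 379, 410.0 and 355 CPM in vehicle and at 609, 567, 756, 374, 458 and 493 CPM at 6 mg/kg, a difference of 0.48 (SE 0.17). Its 1 mg/kg libraries ranged from 412 to 784 CPM, the lowest close to the highest vehicle library.

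Meg3 in striatum was at 784, 800.3, 989.8 and 843 CPM in vehicle and at 1404, 1542, 1528, 751, 1053 and 1017 CPM at 6 mg/kg, a difference of 0.51 (SE 0.21). Libraries 52, 53 and 54 were the high ones, and library 55 was below every vehicle library. The same 3 libraries carried Mirg, at 6.07, 5.93 and 5.64 CPM against 2.34 to 2.85 CPM in the other 6 mg/kg libraries and 1.35 to 4.35 CPM in vehicle. Mirg differed by 0.39 (SE 0.36). Miat differed by 0.52 (SE 0.32), with 45.5 to 92.9 CPM in vehicle and 64.8 to 135 CPM at 6 mg/kg. Rian differed by 0.18 (SE 0.087), with 275 to 312 CPM and 299 to 387 CPM.

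Snhg14 and Malat1 were on the lower side in the striatum. Snhg14 was at 71.5, 96.4, 62.6 and 67.6 CPM in vehicle and at 63.6, 64.0, 36.8, 62.2, 66.9 and 69.8 CPM at 6 mg/kg. Every 6 mg/kg library was below the vehicle mean, library 54 most of all, and the groups overlapped. The log2 difference was -0.30 (SE 0.15). Malat1 was at 203, 151, 288 and 122 CPM in vehicle and at 160, 177.2, 57.6, 136, 225 and 217 CPM at 6 mg/kg, a difference of -0.24 (SE 0.29) in which library 54 was again the lowest. Kcnq1ot1 had a difference of 0.00 (SE 0.22). Without library 54 the difference of Snhg14 was -0.19, that of Malat1 -0.06, that of Neat1 0.58, that of Meg3 0.43 and that of Snhg11 0.37, and the members' median was 0.29.

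**Figure D2:**
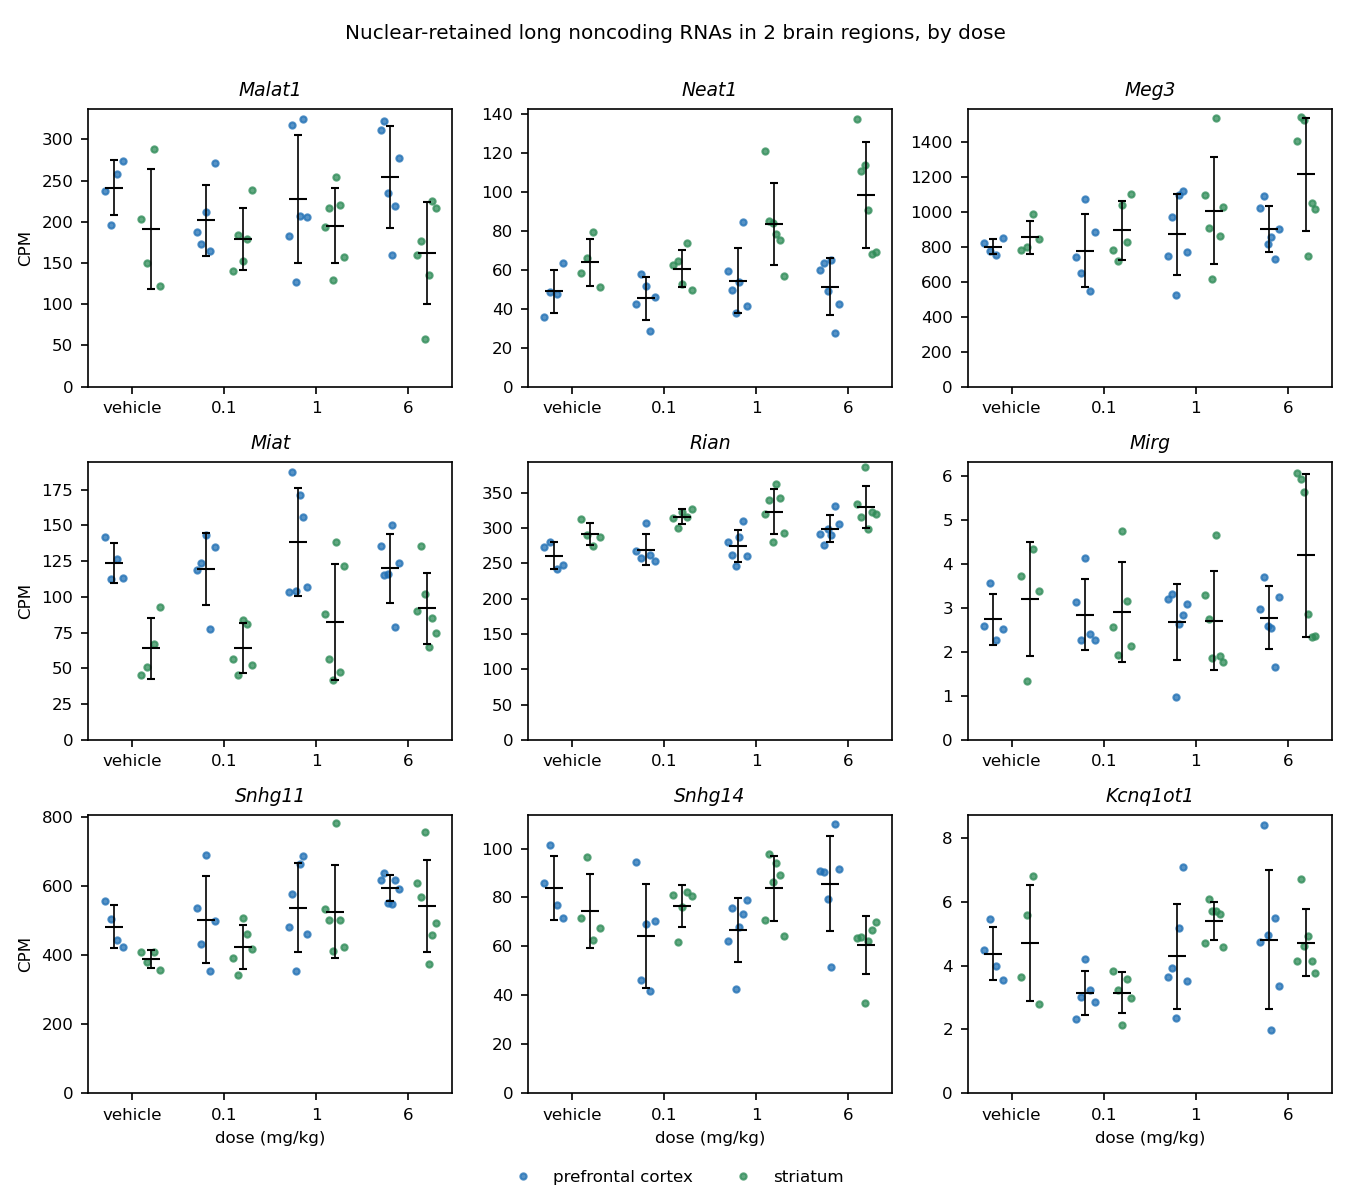
Level in CPM (y axis, linear, separate scale per gene) of the 9 long noncoding RNAs in each library of prefrontal cortex (blue) and striatum (green) by dose in mg/kg (x axis), with the mean and SD of each group in black. In striatum, Neat1 reaches 137 CPM at 6 mg/kg against at most 79.5 CPM in vehicle, and Snhg14 has a single low library at 36.8 CPM.

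The median over the striatal members was 0.39 at 6 mg/kg against 0.01 over all 15118 genes, and -0.002 and 0.20 at 0.1 and 1 mg/kg. Of all striatal genes, 0% passed the adjusted threshold (2377 at an unadjusted p under 0.05, and 31 adjusted with DESeq2) and 1.67% had the 6 mg/kg group wholly above vehicle, as none of the members did. Other measures moved with the dose group. The summed level of 10 neuron markers was 5720 to 7160 CPM in vehicle and 4697 to 5619 CPM at 6 mg/kg, without overlap, and that of 7 oligodendrocyte markers was 4535 to 6862 and 6833 to 9554 CPM. The GC slope was -0.398 to 0.383 in vehicle and 0.281 to 0.419 at 6 mg/kg, and total counts were 10.1 to 10.5 and 8.55 to 9.20 in units of 1e6. With an offset for GC content and length, the differences of Neat1 and Rian became 0.96 and 0.50. Their part in the striatal levels was not tested further.

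**Figure D3:**
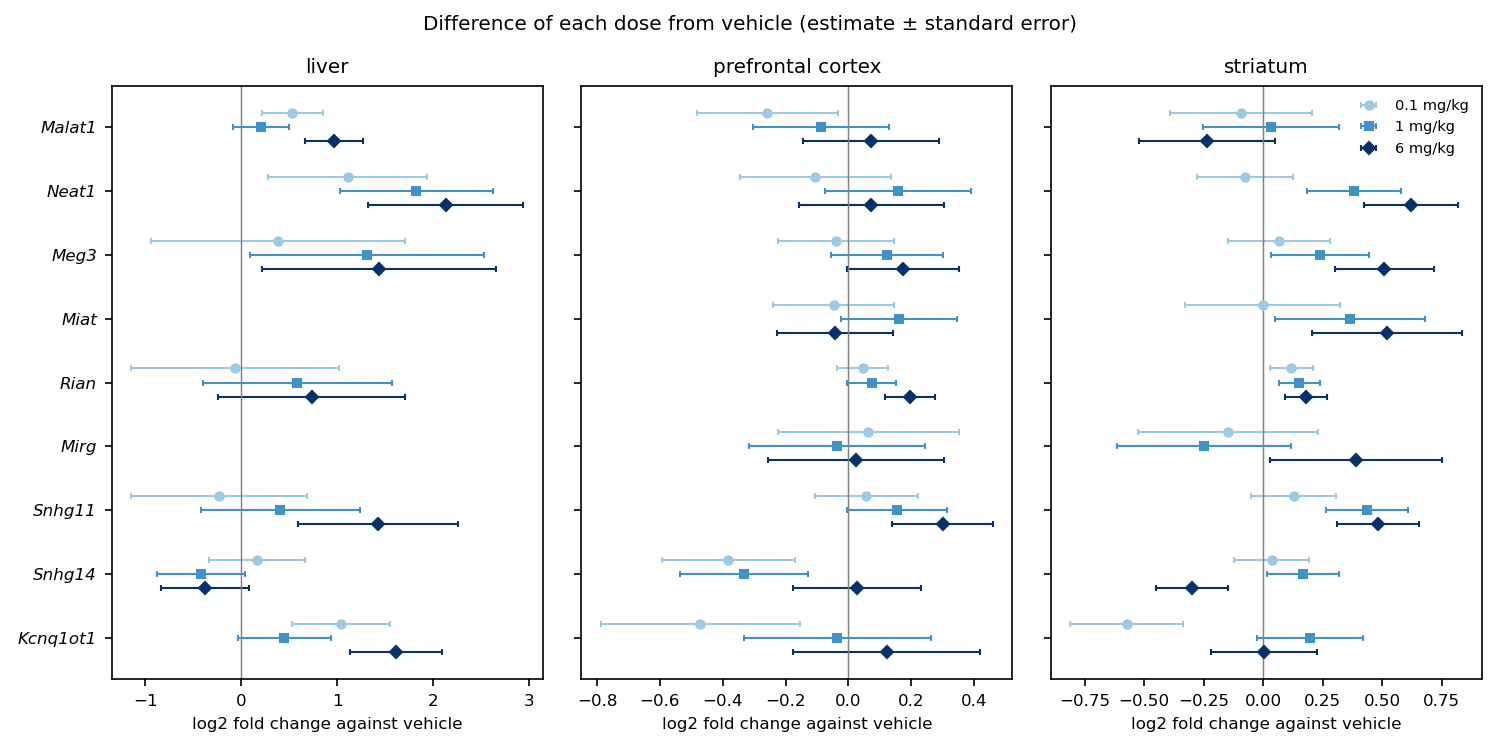
Log2 fold change against vehicle (x axis) of each long noncoding RNA (y axis) at 0.1, 1 and 6 mg/kg in liver, prefrontal cortex and striatum, with bars of 1 standard error, from the edgeR fit. The 3 doses share the vehicle libraries. Liver values reach 2.14 (Neat1), and those of prefrontal cortex stay between -0.47 and 0.30.

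The step between 1 mg/kg and 0.1 mg/kg is not the comparison given above as the reason for choosing the genes, so it was tested. The genes were chosen with earlier results of these data known. Whether libraries of these doses had a part in that choice is not known, so the test may not be independent of it. No member passed in any tissue at an adjusted p of 0.05 (edgeR's quasi-likelihood test, Benjamini-Hochberg over all genes), and none did with DESeq2's Wald test. At an unadjusted p under 0.05 there were 0 of 7 in liver, 0 of 9 in prefrontal cortex and 2 of 9 in striatum, by either tool. Over all genes, 0.0154%, 0% and 0.00661% passed in liver, prefrontal cortex and striatum, with 846, 782 and 1458 genes under an unadjusted 0.05.

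The pair in striatum was Kcnq1ot1 and Neat1. Kcnq1ot1 was at 3.82, 3.23, 2.15, 3.59 and 2.98 CPM at 0.1 mg/kg and at 4.71, 6.08, 5.69, 5.71, 5.63 and 4.58 CPM at 1 mg/kg, without overlap, as were 0.714% of all striatal genes in that direction. Its log2 difference was 0.77 (SE 0.22, edgeR adjusted p 0.203). The vehicle libraries, at 2.79 to 6.82 CPM, spanned both groups. Neat1 was at 62.5, 64.3, 52.9, 73.6 and 49.6 CPM at 0.1 mg/kg and at 121, 85.0, 83.8, 78.3, 75.4 and 56.7 CPM at 1 mg/kg. Its difference was 0.46 (SE 0.18, edgeR adjusted p 0.424), and library 50 alone overlapped the lower dose. Neither passed over all genes. In the same step all 7 oligodendrocyte markers had a positive difference (median 0.17), all 8 striatal neuron markers a negative one (median -0.32) and 22 of 24 ribosomal protein mRNAs a negative one (6 at an unadjusted p under 0.05), and 4 of 10 neuron markers were at an unadjusted p under 0.05 with a positive one. None of these passed the adjusted threshold. The GC slope was -0.308 to -0.0277 at 0.1 mg/kg and -0.558 to 0.275 at 1 mg/kg. Their part in the differences of Neat1, Kcnq1ot1 and the other striatal members was not tested.

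Positive differences between 1 and 0.1 mg/kg outnumbered negative ones among the brain members. They numbered 8 of 9 in prefrontal cortex, with Kcnq1ot1 highest at 0.44 (SE 0.29) and Mirg below 0 at -0.10 (SE 0.26), and 8 of 9 in striatum, where Mirg was again the negative one at -0.10 (SE 0.35). Of all genes 49.6% and 51.6% were positive. The medians were 0.16 and 0.17, against -0.001 and 0.007 over all genes, and with 1 library left out they ranged from 0.05 (without 48) to 0.27 (without 45) in prefrontal cortex and from 0.10 (without 46) to 0.28 (without 45) in striatum. In liver 4 of 7 were positive, with a median of 0.64 against 0.02, and Meg3 highest at 0.92 (SE 1.19). Without the 6 libraries high in neuron markers, 2 of 6 were positive, Meg3 was at -0.55 and the median was -0.36; without library 45 alone the median was -0.003.

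The levels differed between the brain regions for 5 of 9 members, in a test with dose as a term over all 42 brain libraries. Neat1 and Rian were higher in striatum, and Miat, Malat1 and Snhg11 were higher in prefrontal cortex. Of all 15402 genes, 55.4% passed, so 5 of 9 is about the share of all genes, and the members' median size of 0.16 on the log2 scale was under the 0.21 of all genes. Since libraries of the same number may share a mouse, which the labels do not state, these p-values rest on treating all libraries as separate.

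Miat had the largest difference, with 74.99 ± 28.2 CPM in striatum and 130 ± 27.7 CPM in prefrontal cortex (SD, n = 21 each). The log2 difference was -0.80 (SE 0.13, edgeR adjusted p 7.45e-07), and Miat was lower in striatum in 18 of 21 same-numbered pairs. Neat1, the paraspeckle scaffold, stood at 76.2 ± 23.5 and 51.8 ± 13.8 CPM, a difference of 0.53 (SE 0.11, edgeR adjusted p 6.11e-05), higher in 18 of 21 pairs. Malat1 stood at 176 ± 50.8 and 239 ± 60.3 CPM, a difference of -0.44 (SE 0.13, edgeR adjusted p 0.00302), lower in 17 of 21 pairs. Snhg11 stood at 466 ± 116 and 551 ± 104 CPM, a difference of -0.25 (SE 0.081, edgeR adjusted p 0.0085). Rian stood at 308 ± 26.2 and 286 ± 25.2 CPM, a difference of 0.11 (SE 0.038, edgeR adjusted p 0.0151), and it lost the call without library number 42 (0.09, edgeR adjusted p 0.0582).

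The remaining members did not pass between regions. Meg3 differed by 0.16 (SE 0.094, edgeR adjusted p 0.143), Mirg by 0.14 (adjusted p 0.474), Snhg14 by -0.11 (adjusted p 0.396) and Kcnq1ot1 by 0.03 (adjusted p 0.862), all by edgeR. In an alternative fit with the library number as a block, Meg3 did pass (0.15). The cell types measured beside the members differed too. All 7 oligodendrocyte markers were higher in striatum, with Mag at 1.18 (SE 0.083, edgeR adjusted p 3.20e-16), all 8 striatal neuron markers were higher, and of 10 general neuron markers 7 were lower, with Snap25 at -1.06 (SE 0.059, edgeR adjusted p 4.94e-19), and 2 higher, with Gad2, an enzyme of GABA synthesis, at 1.24 (SE 0.097, edgeR adjusted p 9.95e-15). The part of cell makeup in the members' differences was not tested.

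**Figure D4:**
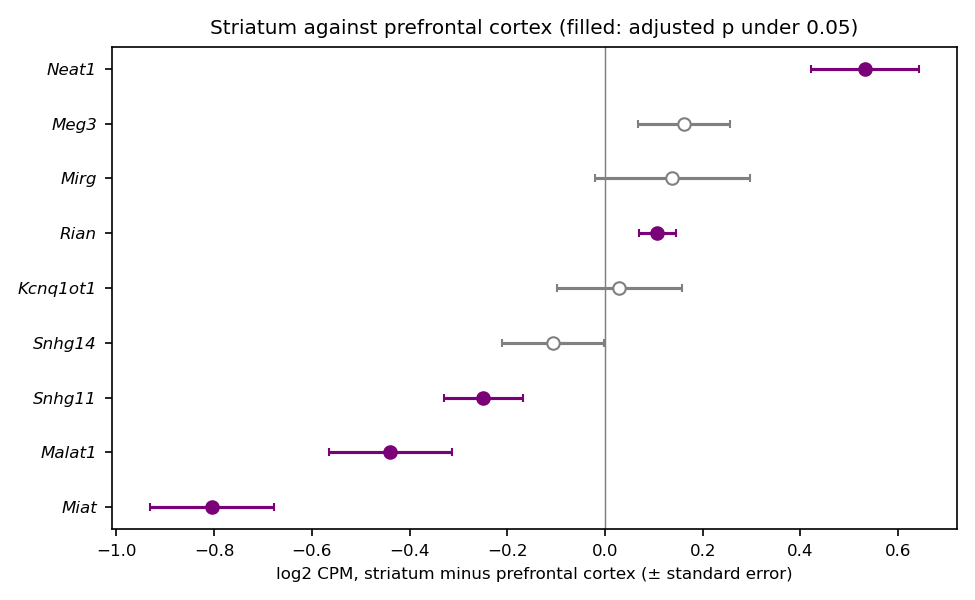
Log2 difference in CPM between striatum and prefrontal cortex (x axis) for each long noncoding RNA (y axis), with bars of 1 standard error, from the edgeR fit over 42 libraries. Filled points passed an adjusted p of 0.05: Miat, Malat1 and Snhg11 on the left, Rian and Neat1 on the right.

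The step from 0.1 to 1 mg/kg was not shown to differ between the regions for any member. In the test of the region-by-dose interaction 0 of 9 passed, 0 had an unadjusted p under 0.05 and the smallest edgeR adjusted p was 0.953. Over all genes 0% passed with edgeR and 0 genes with DESeq2, and 872 had an unadjusted p under 0.05 in edgeR.

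Across libraries of the same dose, some pairs of members varied together in each brain region. Correlations were taken over 21 libraries between deviations of log2 CPM from the dose group mean, with 100000 permutations within dose groups and Benjamini-Hochberg adjustment over 243 relations in 3 tissues. In prefrontal cortex 35 of 36 pairs of members were positive, with a median r of 0.48, and 8 passed. In striatum 22 of 36 were positive, with a median r of 0.11, and 5 passed. The regions were not compared by a test. Members of 1 library share its depth, dissection and RNA, so the pairs are not independent. The liver libraries fall into 2 sets by neuron markers, so the 63 liver relations, which count among the 243, are not given.

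Meg3 and Snhg11 gave the closest pair in both regions. Pearson's r (with Spearman's rho beside each) was 0.88 (permutation p 7e-05, adjusted 0.00243, rho 0.81, permutation p 0.00085) in prefrontal cortex and 0.83 (permutation p 0.00028, adjusted 0.00523, rho 0.80, permutation p 0.00056) in striatum, and 0.79 and 0.77 without the 2 libraries farthest from the median of Meg3. Rian and Snhg11 had r = 0.69 (permutation p 0.0026, adjusted 0.0218, rho 0.59, permutation p 0.0148) and r = 0.80 (permutation p 9e-05, adjusted 0.00273, rho 0.68, permutation p 0.00132), or 0.51 and 0.72 without the 2 farthest libraries. Meg3 and Miat had r = 0.75 (permutation p 0.00152, adjusted 0.0154, rho 0.72, permutation p 0.00414) and r = 0.73 (permutation p 0.00027, adjusted 0.00523, rho 0.76, permutation p 9e-05). Meg3 and Rian, imprinted neighbours on chromosome 12, had r = 0.39 (permutation p 0.134, adjusted 0.325, rho 0.24, permutation p 0.328) in prefrontal cortex and r = 0.60 (permutation p 0.02, adjusted 0.0935, rho 0.45, permutation p 0.0635) in striatum, and neither passed. The chromosome 19 neighbours Malat1 and Neat1 had r = 0.38 (permutation p 0.132, adjusted 0.325, rho 0.30, permutation p 0.219) and r = -0.14 (permutation p 0.65, adjusted 0.849, rho -0.07, permutation p 0.788).

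Snhg14 and Malat1 followed other measures of the libraries. In prefrontal cortex Snhg14 had r = -0.88 with the GC slope (permutation p 2e-05, adjusted 0.00162, rho -0.85, permutation p 1e-05), r = 0.87 with Xist (permutation p 3e-05, adjusted 0.00182, rho 0.78, permutation p 0.00032) and r = -0.88 with the summed ribosomal protein mRNAs (permutation p 1e-05, adjusted 0.00162, rho -0.79, permutation p 0.00031). Without the 2 farthest libraries these were -0.84, 0.78 and -0.79. In striatum Snhg14 had r = -0.63 with the GC slope (permutation p 0.00015, adjusted 0.00353, rho -0.62, permutation p 0.00281; -0.70 without the 2 farthest libraries), and its relations with Xist (r 0.60, permutation p 0.0293, adjusted 0.12, rho 0.53, permutation p 0.0181) and with ribosomal protein mRNAs (r -0.63, permutation p 0.0575, adjusted 0.203, rho -0.35, permutation p 0.126) did not pass. Malat1 had r = 0.80 with Xist in prefrontal cortex (permutation p 7e-05, adjusted 0.00243, rho 0.71, permutation p 0.00129; 0.72 without the 2 farthest) and 0.73 in striatum (permutation p 0.00342, adjusted 0.0268, rho 0.66, permutation p 0.00273; 0.54 without them).

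Neat1 in striatum moved with cell type markers. It had r = 0.64 with the oligodendrocyte sum (permutation p 0.00217, adjusted 0.0195, rho 0.73, permutation p 0.00044; 0.59 without the 2 farthest libraries) and r = -0.66 with the neuron sum (permutation p 0.00143, adjusted 0.0151, rho -0.66, permutation p 0.00211; -0.52 without them). In prefrontal cortex the same relations were 0.41 (permutation p 0.0684, adjusted 0.227, rho 0.47, permutation p 0.0435) and -0.29 (permutation p 0.224, adjusted 0.465, rho -0.40, permutation p 0.088), and neither passed.

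**Figure D5:**
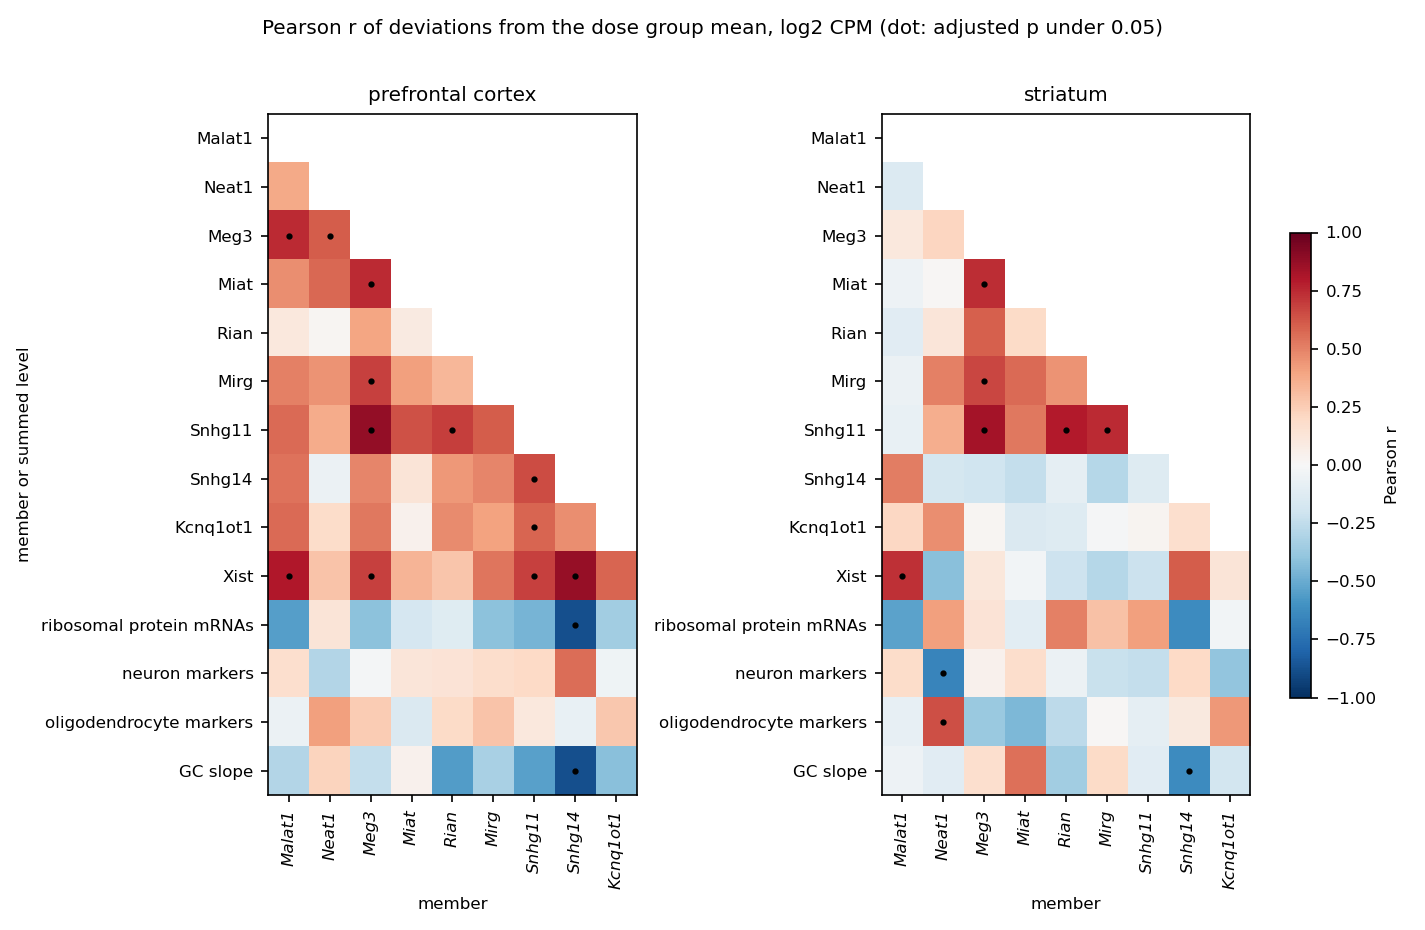
Pearson r (colour, -1 to 1) between each long noncoding RNA (x axis) and each other one, Xist, 3 summed levels or the GC slope (y axis), over 21 libraries of prefrontal cortex and 21 of striatum, as deviations from the dose group mean of log2 CPM. Dots mark an adjusted p under 0.05. Meg3 with Snhg11 is dark in both panels (0.88 and 0.83), and Snhg14 with the GC slope is blue in both (-0.88 and -0.63).

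The genes most like Malat1 and Meg3 over all libraries of a brain region are a description, with r of log2 CPM over the 21 libraries of each brain region, which share depth and RNA quality. For Malat1 they were Rbm33 (0.85), Adamts6 (0.83) and Dusp11 (0.83) in prefrontal cortex and Pcdhga6 (0.82), 9630028H03Rik (0.81) and Slc30a7 (0.81) in striatum. The lowest r of Malat1 was with Sf3a3 (-0.79) and St3gal3 (-0.80) in the same order. For Meg3 they were Leng8 (0.93), Firre (0.86) and Dot1l (0.85) in prefrontal cortex, lowest Tsc22d1 (-0.86), and Coro6 (0.90), Mir1906-1 (0.87) and Leng8 (0.87) in striatum, lowest Asb7 (-0.71). Mir1906-1 lies inside Meg3. Chosen after their values were seen, Snhg14 in striatum was close to Ro60 (0.95) and to Ube3a (0.94), which it overlaps, and Neat1 in striatum to Hapln2 (0.86), Carns1 (0.81) and Sirt2 (0.80).

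Other long noncoding RNAs, a list also drawn up with earlier results known, were mostly positive at 6 mg/kg, which is therefore no independent evidence of a direction. Of 26 tested in liver, 34 in prefrontal cortex and 35 in striatum, 19, 23 and 23 had a positive difference, with medians of 0.26, 0.11 and 0.13. Of all genes 51.9%, 51.1% and 51.7% were positive. Only Mir22hg in liver, a miRNA host transcript, passed (1.21, SE 0.33, edgeR adjusted p 0.0494). That is 1 of 26, beside 2.8% of all liver genes. Without the 6 libraries high in neuron markers no liver gene passed (0 of 12743, with 1645 at an unadjusted p under 0.05), and Mir22hg was at 0.94 (SE 0.40, edgeR adjusted p 0.348). The closest in the brain did not pass. They were Snhg5 in prefrontal cortex (0.62, SE 0.25, edgeR adjusted p 0.444) and Oip5os1 in striatum (-0.52, SE 0.14, edgeR adjusted p 0.208), the latter also known as Cyrano. Between regions 16 of 35 passed, where 55.4% of all genes did, 8 in each direction, among them Sox2ot (1.06, SE 0.076, edgeR adjusted p 6.16e-16) and Oip5os1 (-1.19, SE 0.090, edgeR adjusted p 4.11e-15).

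Messenger RNAs that keep introns and stay partly in the nucleus were also compared, and none of 24 passed at 6 mg/kg in any tissue. In liver all 24 had a positive difference, with a median of 0.52 against 0.02 over all liver genes. The list was drawn up with the higher nuclear RNAs known, so its direction is no independent evidence. Ddx39b, an RNA helicase of splicing and export, differed by 0.69 (SE 0.22, edgeR adjusted p 0.0779), and Clk2, a kinase of splicing factors, by 0.95 (SE 0.36, edgeR adjusted p 0.124). In prefrontal cortex 18 and in striatum 13 of 24 were positive, with medians of 0.08 and 0.03. Short cytoplasmic ribosomal protein mRNAs had 5 of 24 positive in liver (median -0.28, 8 of 24 below an unadjusted p of 0.05, all with a negative difference, beside 3136 of all 12968 liver genes), 21 in prefrontal cortex (0.10) and 23 in striatum (0.11). None of them passed. The genes with the smallest p in liver were Rpl10a (-0.78, SE 0.22, edgeR adjusted p 0.0546) and Rpl5 (-0.58, SE 0.20, edgeR adjusted p 0.0935).

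The proteins of paraspeckles and speckles had no gene past the threshold at 6 mg/kg among 18 per tissue. In liver 11 of 18 had a positive difference, with a median of 0.13. At an unadjusted p under 0.05 there were 3 with a positive and 4 with a negative one, beside 3136 of all 12968 liver genes. Nono, a paraspeckle core protein, differed by -0.51 (SE 0.17, edgeR adjusted p 0.0928) in liver, and Cpsf6, a cleavage factor subunit, by -0.55 (SE 0.19, edgeR adjusted p 0.101). In striatum Cpsf6 differed by -0.34 (SE 0.090, edgeR adjusted p 0.208). Of the neighbours of Malat1 and Neat1, 0 of 9 or 10 passed at 6 mg/kg. Ltbp3, which binds latent TGF-beta, came closest in striatum (0.48, SE 0.11, edgeR adjusted p 0.208), and Ehbp1l1 did in liver (0.61, SE 0.18, edgeR adjusted p 0.0687).

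Of the 6, 3 and 9 imprinted neighbours of Snhg14, Meg3 and Kcnq1ot1 tested in liver, 1 passed at 6 mg/kg, against 2.8% of all liver genes, and none passed in the brain regions. Ube3a, the ubiquitin ligase whose paternal copy Snhg14 silences in neurons, was lower in liver by -0.62 (SE 0.17, edgeR adjusted p 0.0481), beside the Snhg14 difference of -0.38. Without the 6 libraries high in neuron markers, a fit in which no gene passed, Ube3a was at -0.72 (SE 0.20, edgeR adjusted p 0.205) and Snhg14 at -0.12 (SE 0.43). In striatum Ube3a differed by -0.38 (SE 0.13, edgeR adjusted p 0.221), beside -0.30 for Snhg14, and did not pass. Among 7 genes around Meg3, none passed at 6 mg/kg. Between regions 5 did, 3 higher and 2 lower in striatum, beside 55.4% of all genes. Dlk1, a growth regulator made from the paternal copy, was higher in striatum by 4.03 (SE 0.22, edgeR adjusted p 2.88e-18) and Rtl1 by 1.41 (SE 0.12, edgeR adjusted p 2.32e-13), while Meg3 differed by 0.16 and Rian by 0.11. Around Kcnq1, none passed at 6 mg/kg, and Trpm5 came closest in striatum (0.77, SE 0.30, edgeR adjusted p 0.239), where Kcnq1ot1 differed by 0.00, and Slc22a18 in liver (0.63, SE 0.24, edgeR adjusted p 0.125).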

How the data were processed

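RNA was measured in 62 libraries of liver, prefrontal cortex and striatum. The authors deposited raw read counts per gene, by Entrez identifier, in 1 table per tissue. The submitters' processing notes name HISAT2, FastQC and the mm10 build; the counting tool, its annotation and its strand setting are not given in the sources used here. The labels' protocols name poly(A) capture and rRNA removal without saying which was used, and that choice bears on nuclear RNAs without long poly(A) tails. The deposited counts were whole numbers with no gene under 10 in total, no 2 libraries of a group agreed within sampling noise, and every column was used.

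Samples were grouped by the labelled dose. Each tissue was fitted with all 4 dose groups in edgeR 4.0.16 (R 4.3.3; TMM scaling, filterByExpr, robust quasi-likelihood test, Benjamini-Hochberg adjustment over all genes, threshold 0.05), and both brain regions together with dose as a term. The method was tested on simulated counts. Standard errors are the size of the log2 fold change over the root of F. CPM use TMM-scaled totals, and log2 CPM a prior count of 2. Levels, correlations and promoters were computed in Python 3.11.15 (numpy 2.4.6, scipy 1.17.1, pandas 2.3.3). Depth limits the precision, and the floor of 3 counts covers counting error only.

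The members and gene lists were chosen with earlier results of these data known. The members' difference between 6 mg/kg and vehicle is therefore given without a test. All 9 members are named in every tissue. Of the other lists, up to 4 genes past the threshold with the smallest p are named per comparison, or the 2 with the smallest p where none passed; the text prints those that stand beside a member's result. The genes most like Malat1 and Meg3 are the 3 with the highest r and the 1 with the lowest, printed for the brain regions only because the liver libraries fall into 2 sets. Alternatives were DESeq2 1.42.0, median-ratio scaling, other filters, fewer groups, an offset for GC content and length, 1 surrogate variable (sva 3.50.0), each library left out and a replicate block. Leaving out the liver libraries high in neuron markers, and the GC slope, were added after the data were seen.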

Additional observations from a re-analysis of the deposited data

Results flagged for a closer look

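Of 100 groups of 4 to 6 libraries, 6 held a library whose gap to the nearest other one was a large part of the group's range, where chance gives about 1 in 20 groups, or 5. In liver, Meg3 stood at 6.41 CPM in library 25 of the 0.1 mg/kg group, and Rian at 2.43 CPM in vehicle library 7, both far above the rest of their groups and both among the 6 libraries high in neuron markers. In prefrontal cortex, Rian stood at 307 CPM in library 25 at 0.1 mg/kg, above the others, and Mirg at 0.978 CPM in library 45 at 1 mg/kg, below the others. In striatum, Snhg11 stood at 784 CPM in library 46 at 1 mg/kg, above the others, and Snhg14 at 36.8 CPM in library 54 at 6 mg/kg, below the others. Library 54 of the striatum also had the lowest Malat1 of its group (57.6 CPM).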

How the results depend on the processing

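No member passed between 1 and 0.1 mg/kg, or in the region-by-dose interaction, under any alternative run. The count of all genes called moved with the method. Between 1 and 0.1 mg/kg, liver had 2 calls, 22 with DESeq2, 1 without a filter, 1 with only both groups compared and 0 without the libraries high in neuron markers (429 unadjusted). Prefrontal cortex had 0, 13 with DESeq2 and 18 with the GC and length offset. Striatum had 1, 89 with DESeq2, 29 with the offset, 6 with 1 surrogate variable and 0 with median-ratio scaling, no filter or only both groups. Between 6 mg/kg and vehicle, liver had 363, 1138 with DESeq2, 241 without a filter, 105 with the offset, 13 with only both groups and 0 without the libraries high in neuron markers. Prefrontal cortex had 0, 25 with DESeq2 and 1 with a surrogate variable, and striatum 0 and 31 with DESeq2. Leaving out 1 library gave 0 to 7 calls in liver, 0 to 1 in prefrontal cortex and 0 to 10 in striatum between the lower doses, and 3 (without vehicle 4) to 1302 (without library 56) in liver, 0 to 1 in prefrontal cortex and 0 in striatum at 6 mg/kg. Between regions 8264 to 8645 genes and 4 to 5 members were called, the 4 without number 42, when Rian was lost.

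The members' median moved as well. Leaving out 1 library gave medians between 1 and 0.1 mg/kg of -0.003 to 0.87 in liver, 0.05 to 0.27 in prefrontal cortex and 0.10 to 0.28 in striatum, and at 6 mg/kg of 1.00 to 2.22, 0.01 to 0.18 and 0.18 to 0.51. With 1 surrogate variable the liver median at 6 mg/kg was 0.27 and Rian was at -0.79. Kcnq1ot1 was at 0.89 there with the offset and at 0.89 without the libraries high in neuron markers, and Rian at 2.57 without vehicle 7. In striatum the offset gave 0.96 for Neat1 and 0.50 for Rian. Small differences between 1 and 0.1 mg/kg changed sign. In liver these were Meg3 (-0.12 with a surrogate variable, -0.55 without the libraries high in neuron markers) and Rian (-0.47 with a surrogate variable, and -0.00299 to 1.01 with 1 library left out, the lowest without 45). With 1 library left out, in prefrontal cortex they were Rian (-0.00557 to 0.089), Mirg (-0.17 to 0.10, above 0 without 45 or 25) and Snhg14 (-0.065 to 0.23, below 0 without 28 or 24). In striatum they were Rian (-0.11 with the offset, -0.00127 to 0.076 with 1 library left out) and Mirg (-0.32 to 0.14, above 0 without 50 or 25). Between regions, Kcnq1ot1 was at -0.027 to 0.068 with 1 number left out, below 0 without 7, 42, 45 or 55. The cause was not tested.

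The labels share numbers between tissues without stating that they mark a mouse. Across 21 same-numbered pairs of prefrontal cortex and striatum the mean correlation of deviations was 0.09, from -0.08 to 0.20, with 12 over 0.1, against -0.02 for other pairs; 12 of 21 striatal libraries were closest to their own number. With a replicate block, 8639 genes and 6 members were called between regions, Meg3 added (0.15, edgeR adjusted p 0.0409), and the interaction had 0 calls.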
